A study of Mus musculus with 6 samples.

Results

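The cornified envelope genes of mouse are taken here as every gene whose symbol begins with Sprr or Lce, together with Ivl, Flg, Flg2, Hrnr, Rptn, Tchh, Crnn, Cnfn, Tgm1 and Tgm3. Of 48 such symbols in the RefSeq gene table, 43 were measured, among 22206 probe sets of which 19572 carry 1 gene symbol. Flg, Sprr2a1, Sprr2a2, Sprr2a3 and Sprr2c-ps were not analysed here. Genes were chosen by name, and within a gene the probe set was to be chosen by its mean level over the 6 arrays. Each of the 43 genes had 1 probe set, so that no measured value decided between probe sets. No filter on low values was applied, and all 43 were tested.

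The envelope is a shell of cross-linked protein that squamous epithelial cells lay down under their plasma membrane in the last step of their differentiation, in skin and in the lining of the mouth, oesophagus and forestomach. Involucrin, encoded by Ivl, forms an early scaffold, transglutaminases such as those of Tgm1 and Tgm3 join it to small proline-rich (Sprr) and late cornified envelope (Lce) proteins, and lipids are bound to its outer face. Most of these genes lie side by side in a cluster called the epidermal differentiation complex. Thyroid follicles are lined by a simple epithelium that does not cornify.

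Thyroid RNA came from 3 Foxe1flox/flox/Cre mice, called knockouts here, in which tamoxifen-activated Cre recombinase deletes the floxed gene of the thyroid transcription factor Foxe1, and from 3 Cre controls that carry Cre without the floxed allele. All mice had a C57BL/6J background. Both groups received tamoxifen, 0.05 g/kg into the abdomen daily for 5 days, at 6 to 8 weeks of age, and thyroid was taken 2 weeks after treatment, with 1 lobe and 1 array per animal. Neither the promoter that drives Cre nor the animals' sex is stated.

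Values are log2 signals, so a difference of 1 is a doubling. Array medians lay between 5.62 and 5.69. Foxe1 read 7.60, 7.19 and 7.04 in controls 1 to 3 and 3.33, 2.88 and 3.04 in knockouts 1 to 3. Of the 10 measured thyroid follicular markers, Tg lay between 18.67 and 19.27 on all 6 arrays, near the top of the scale. Others were less even: Slc5a5 ranged from 2.97 to 11.61, and 9 of the 10 had a positive difference. The lobes held more than thyroid: the squamous keratin Krt13 read between 19.12 and 19.37 and the airway gene Bpifa1 between 18.07 and 19.89. The parathyroid hormone gene Pth was uneven, at 18.24, 19.68 and 17.02 in controls 1 to 3 and 3.56, 18.61 and 10.06 in knockouts 1 to 3. Precision is limited throughout by having 3 arrays in each group. In whole lobes a larger number of squamous cells and more RNA per squamous cell cannot be told apart.

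A pair of arrays stood apart in a way the labels do not give. The Y-linked genes Eif2s3y, Uty and Kdm5d averaged 3.04 in control 1 and 2.65 in knockout 3, and between 8.03 and 8.30 on the other 4 arrays. Control 1 was also the lowest array, and knockout 3 the highest, for most envelope genes. Each group held 1 such array. Results are therefore given with and without these arrays.

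Most Sprr and Lce genes read higher in the knockout lobes, without any one of them passing the threshold. Of 43 members, 36 had a positive difference, where 46.8% of all probe sets did, and the median difference was 0.83 on the log2 scale against -0.02 over all probe sets. By family, 12 of 13 Sprr, 19 of 21 Lce and 5 of the 9 other genes were positive. The 12 members whose mean was at or below the median of all values split into 6 positive and 6 negative, with a median of 0.06. In limma's fit, with p-values adjusted by Benjamini-Hochberg across the whole table, 0 of 43 had an adjusted p under 0.05, where 0.338% of all probe sets did (0.252% higher and 0.0856% lower). At an adjusted p under 0.1 there were 4, all higher, where 0.815% of all probe sets passed in that direction. An unadjusted p under 0.05 was reached by 25 members with a higher knockout mean, where 6.61% of all probe sets reached it in that direction, and by 0 with a lower mean, where 6.13% did. All 3 knockouts lay above all 3 controls for 26 members, where 9.28% of all probe sets did so. The members share their arrays and were chosen with earlier results of these data known, so these shares are a description. The smallest adjusted p was 0.0589, for Sprr2j-ps.

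The Sprr family, small proline-rich proteins whose repeats are cross-linked by transglutaminases, held the largest differences. Sprr1b read 6.49, 8.94 and 7.51 in control lobes and 10.42, 10.59 and 11.32 in knockout lobes. Every knockout stood above every control, and the spread among controls was wider than among knockouts. The difference was 3.13 (SE 0.54, limma adjusted p = 0.0624). Each SE given here is limma's moderated standard error, which borrows variance from the whole table. The Sprr1b difference was 8.75-fold, between 7.65 ± 1.23 and 10.78 ± 0.48 (SD, n = 3 each). Its close relative Sprr1a read 9.55, 11.61 and 12.00 against 11.13, 11.46 and 12.05, so that 2 controls lay within the range of the knockouts. Its difference was 0.49 (SE 0.57, adjusted p = 0.785), and without control 1 it turned to -0.26.

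Sprr3, the Sprr gene typical of oesophageal and oral epithelium, read 17.42, 18.01 and 17.99 in control lobes and 18.78, 18.84 and 19.24 in knockout lobes. The 2 groups did not overlap, and they differed by 1.15 (SE 0.23, adjusted p = 0.0907). These readings stood above the 99.6th percentile of every array, near the table's maximum of 19.93, where RMA values may be compressed. Sprr4 stood near the bottom of the arrays, with 5 of 6 readings below the lower quartile (3.49 to 3.60), and differed by -0.13 (adjusted p = 0.905).

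The Sprr2 genes lie in a row and encode near-identical short proteins, so probe sets of one may read transcripts of another, and their values are not independent. All 9 measured members had positive differences, from 0.16 for Sprr2h to 2.21 for Sprr2j-ps, with a median of 0.99. For 8 of the 9 no control reached the lowest knockout, where 9.28% of all probe sets showed this. Sprr2j-ps, a pseudogene by its name, read 7.38, 8.68 and 8.28 in control lobes and 9.77, 10.36 and 10.85 in knockout lobes (difference 2.21, SE 0.37, adjusted p = 0.0589). Sprr2k read 4.53, 5.79 and 5.10 against 6.01, 7.01 and 7.11, a difference of 1.57 (SE 0.38, adjusted p = 0.139), with control 2 just under knockout 1. Sprr2b read 4.10, 4.27 and 4.75 against 5.32, 5.74 and 5.73, a difference of 1.22 (SE 0.23, adjusted p = 0.0737).

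Among the remaining Sprr2 genes, Sprr2i differed by 1.29 (adjusted p = 0.195), Sprr2e by 0.99 (adjusted p = 0.172), Sprr2d by 0.75 (adjusted p = 0.195) and Sprr2f by 0.67 (adjusted p = 0.256). For each of these 4 the lowest knockout stood above the highest control, as it did for 9.28% of all probe sets. Sprr2e read 5.10, 5.50 and 5.28 in control lobes and 5.72, 6.40 and 6.72 in knockout lobes. Sprr2g (0.39) and Sprr2h (0.16) had 5 of 6 readings below the lower quartile of their array, where signal and background are hard to separate.

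**Figure D1:**
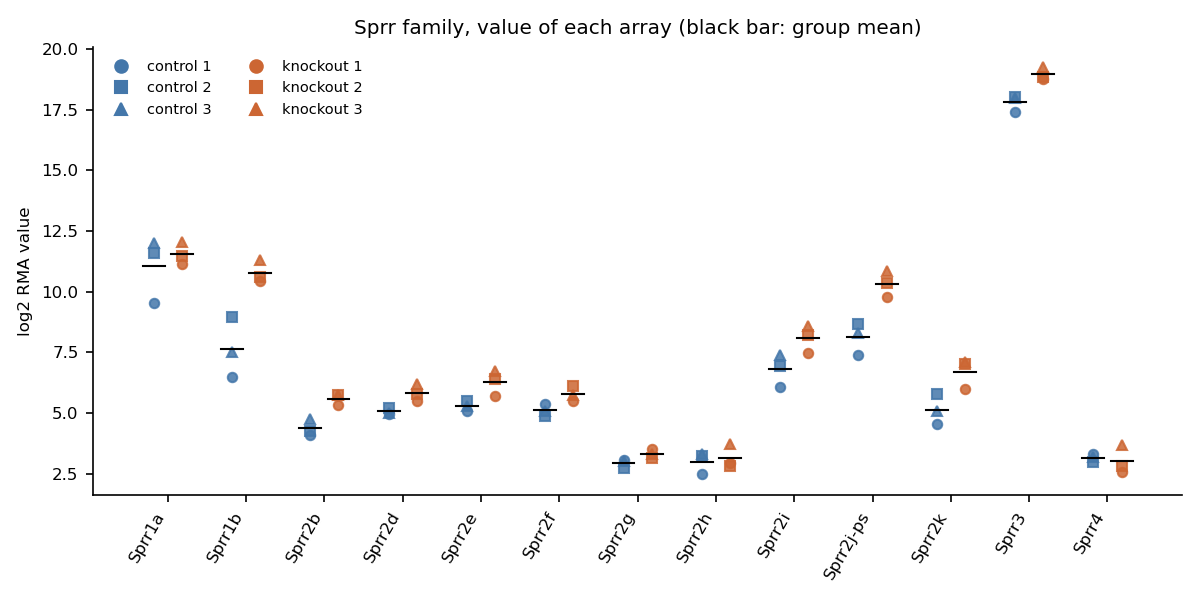
Log2 RMA value (vertical axis) of each of the 13 measured Sprr genes (horizontal axis) on each of 6 arrays, with controls in blue, knockouts in orange, a marker shape for each replicate number, and a black bar for each group mean. The groups are farthest apart for Sprr1b (7.65 against 10.78) and Sprr2j-ps, while Sprr1a, Sprr2h and Sprr4 overlap.

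Promoters are shown for the Sprr genes with the smallest p that have a RefSeq entry, Sprr1b, Sprr2b, Sprr2k and Sprr3, and beside them for Ivl and Lce3f, envelope genes with negative differences. Each line gives the 250 bases before the annotated start, 5′ to 3′, in build GRCm38.p6. Capitals mark matches, on either strand, to 4 motifs: the AP-1 site TGANTCA, the Ets core AGGAAG, the octamer ATGCAAAT and the TATA motif TATAAA. The regions are chr3:92438780-92439029 (minus strand) for Sprr1b, chr3:92316455-92316704 (plus strand) for Sprr2b, chr3:92432332-92432581 (plus strand) for Sprr2k, chr3:92458721-92458970 (minus strand) for Sprr3, chr3:92573736-92573985 (minus strand) for Ivl and chr3:92991967-92992216 (plus strand) for Lce3f.
Sprr1b: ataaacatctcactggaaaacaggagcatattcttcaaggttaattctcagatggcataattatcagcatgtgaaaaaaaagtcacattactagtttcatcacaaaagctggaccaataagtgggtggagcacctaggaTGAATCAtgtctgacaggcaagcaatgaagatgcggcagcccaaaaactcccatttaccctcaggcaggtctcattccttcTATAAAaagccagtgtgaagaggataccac
Sprr2b: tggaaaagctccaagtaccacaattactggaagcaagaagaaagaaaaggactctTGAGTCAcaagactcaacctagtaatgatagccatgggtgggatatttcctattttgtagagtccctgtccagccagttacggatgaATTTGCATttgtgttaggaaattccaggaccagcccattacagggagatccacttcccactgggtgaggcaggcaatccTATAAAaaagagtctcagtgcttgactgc
Sprr2k: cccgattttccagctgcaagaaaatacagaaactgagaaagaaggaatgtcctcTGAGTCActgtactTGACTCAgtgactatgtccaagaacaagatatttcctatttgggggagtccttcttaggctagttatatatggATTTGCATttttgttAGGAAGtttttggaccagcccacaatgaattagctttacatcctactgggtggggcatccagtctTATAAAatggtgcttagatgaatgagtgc
Sprr3: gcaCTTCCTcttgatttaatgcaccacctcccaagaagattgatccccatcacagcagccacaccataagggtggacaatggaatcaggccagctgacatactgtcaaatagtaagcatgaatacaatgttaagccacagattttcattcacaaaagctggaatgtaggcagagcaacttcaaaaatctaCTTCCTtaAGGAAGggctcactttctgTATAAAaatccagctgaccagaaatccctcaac
Ivl: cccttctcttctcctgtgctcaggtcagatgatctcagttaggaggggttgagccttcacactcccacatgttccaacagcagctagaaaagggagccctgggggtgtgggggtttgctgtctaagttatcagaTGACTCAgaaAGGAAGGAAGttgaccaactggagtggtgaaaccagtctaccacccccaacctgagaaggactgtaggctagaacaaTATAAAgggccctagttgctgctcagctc
Lce3f: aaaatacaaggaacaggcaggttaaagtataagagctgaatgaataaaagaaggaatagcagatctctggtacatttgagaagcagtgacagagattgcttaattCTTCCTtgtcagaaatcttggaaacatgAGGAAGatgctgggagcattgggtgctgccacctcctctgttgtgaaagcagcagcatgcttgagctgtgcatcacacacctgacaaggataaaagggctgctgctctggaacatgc
AP-1 factors are dimers of Jun and Fos proteins and are known regulators of squamous genes.

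The motifs were found in different shares of the Sprr and Lce promoters. Of the 43 members 40 had an entry, with 41 promoters among them. TGANTCA was found in 9 of 11 Sprr promoters (81.8%) and in 0 of 20 Lce promoters, against 6.75% of all 32851 promoters in the table. ATGCAAAT was found in 7 of 11 Sprr promoters, against 1.6% of all, and TATAAA in 10 of 11, against 12.4% of all and 4 of 20 Lce promoters. The Sprr4 promoter held none of these 3 motifs, and those of Sprr1a, Sprr1b and Sprr3 held no octamer. AGGAAG was found in 4 of 11 Sprr and 10 of 20 Lce promoters, against 29.5% of all. In the Sprr1b window the AP-1 match began at -111 relative to the start and the TATA match at -30, and the Sprr2k window held 2 AP-1 matches. Among these windows, Sprr3 held no TGANTCA and differed by 1.15, while Ivl held 1 match and differed by -0.25. A match is a description of letters, and the Sprr2 promoters are related by gene duplication.

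The Lce genes encode small cysteine-rich proteins added late to the envelope. Of 21 measured, 19 had positive differences, where 46.8% of all probe sets did, with a median of 0.83. None passed the threshold (smallest adjusted p = 0.136). At an unadjusted p under 0.05 there were 12, all higher, where 6.61% of all probe sets were higher at that p. All 14 Lce1 genes were positive, from 0.36 for Lce1f to 1.58 for Lce1m. Lce1d read 6.45, 8.26 and 7.88 in control lobes and 9.06, 8.79 and 9.33 in knockout lobes (difference 1.53, SE 0.42, adjusted p = 0.174). Its lowest reading, control 1, lay well under the other controls. Lce1m read 3.37, 4.43 and 4.70 against 5.44, 5.47 and 6.34 (difference 1.58, SE 0.38, adjusted p = 0.136), with control 1 below the lower quartile of its array. Lce1f read 11.60, 12.63 and 12.49 against 12.70, 12.40 and 12.71, and the groups overlapped.

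The other Lce1 members took values between these. Lce1k differed by 1.17, Lce1a1 by 1.12, Lce1c by 1.10, Lce1b by 1.01, Lce1g by 0.85, Lce1h by 0.84, Lce1j by 0.82, Lce1a2 by 0.78, Lce1i by 0.60, Lce1l by 0.57 and Lce1e by 0.52. The smallest adjusted p among these 11 was 0.215, for Lce1l. Lce1l read 6.68, 6.87 and 6.81 in control lobes (SD 0.10) and 7.25, 7.34 and 7.49 in knockout lobes (SD 0.12). The moderated SE of its difference was 0.18. Lce1 copies are similar in sequence, so their probe sets may share signal.

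In the Lce3 group 5 of 6 genes had positive differences. Lce3b read 9.92, 11.11 and 10.75 in control lobes and 11.47, 11.27 and 11.74 in knockout lobes (difference 0.90, SE 0.30, adjusted p = 0.258). Lce3a differed by 0.84, Lce3c by 0.83, Lce3d by 0.76 and Lce3e by 0.56, with adjusted p of 0.271 or more. Lce3f, next to Lce3e on the chromosome, differed from these neighbours in sign. It read 14.93, 15.53 and 15.65 against 15.01, 14.73 and 15.44, a difference of -0.31 (SE 0.26, adjusted p = 0.69). Lce6a lay below the lower quartile on all 6 arrays and differed by -0.34.

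The S100-fused proteins, long repetitive proteins of the granular layer that bundle keratin or harden the cell, split into abundant and barely detected genes. Repetin, Rptn, read 16.48, 17.47 and 17.28 in control lobes and 17.96, 18.01 and 18.15 in knockout lobes, with every knockout above every control (difference 0.96, SE 0.27, adjusted p = 0.174). Hornerin, Hrnr, read 14.78, 16.10 and 16.20 against 16.49, 15.88 and 16.66, and the groups overlapped (0.65, adjusted p = 0.537). Flg2, which encodes a filaggrin relative of skin, and the hair follicle gene Tchh lay below the lower quartile on all 6 arrays, and cornulin, Crnn, on 3 of 6. Their differences were -0.04, -0.34 and -0.04. Tchh was the single member with all 3 knockouts below all 3 controls, where 8.78% of all probe sets did so.

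Involucrin, the scaffold protein, had a negative difference. Ivl read 4.64, 5.02 and 5.50 in control lobes and 4.37, 4.90 and 5.13 in knockout lobes, below the median of every array, and differed by -0.25 (SE 0.28, adjusted p = 0.773). Cornifelin, Cnfn, another envelope precursor, read 15.65, 16.96 and 17.04 against 17.51, 17.77 and 17.90 (difference 1.18, SE 0.36, adjusted p = 0.208). All 3 knockout readings of Cnfn lay above all 3 control readings, where 9.28% of all probe sets did so.

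Both cross-linking enzymes had higher knockout readings. Tgm1, the membrane-bound transglutaminase of keratinocytes, read 12.81, 13.44 and 13.71 in control lobes and 14.16, 14.11 and 14.83 in knockout lobes (difference 1.05, SE 0.29, adjusted p = 0.176). Tgm3, a soluble transglutaminase, read 17.92, 19.38 and 19.04 against 19.56, 19.51 and 19.93 (difference 0.89, SE 0.35, adjusted p = 0.337). Neither overlapped between the groups, where all 3 knockouts lay above all 3 controls for 9.28% of all probe sets. Without control 1 the differences were 0.79 for Tgm1 and 0.46 for Tgm3. The knockout 3 reading of Tgm3 equals the highest value in the table, so its difference may be compressed. Tgm5, another transglutaminase gene of squamous cells, which lies outside the rule, differed by 0.71 (adjusted p = 0.491).

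Leaving out control 1 or knockout 3, the arrays without Y-linked signal, made the median difference smaller for the Sprr and for the Lce genes. So did leaving out knockout 2, which has Y-linked signal. The Sprr median was then 0.93, against 0.99 with all arrays, and the Lce median 0.81, against 0.83. Control 1 was the lowest of the 6 arrays for 34 of 43 members and for all 14 Lce1 genes, where 18.7% of all probe sets had it lowest. Over the 31 members whose mean exceeded the median of all values (5.67), the mean log2 value was 11.31 in control 1, 12.63 and 12.43 in the other controls, and 12.95, 13.02 and 13.34 in the knockouts. Knockout 3 was the highest array for 27 of 43 members, where 21.9% of all probe sets had it highest.

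**Figure D2:**
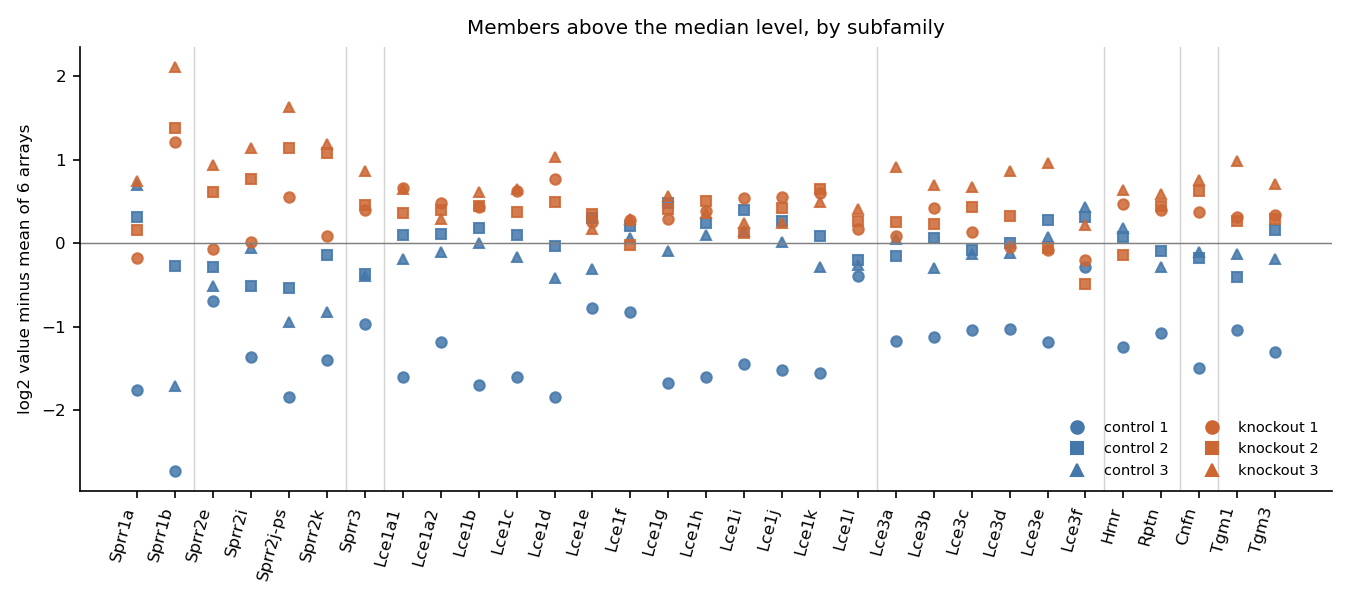
Log2 value minus the mean of the 6 arrays (vertical axis) for the 31 members above the median level, ordered by subfamily with grey lines between subfamilies, with controls in blue, knockouts in orange and a marker shape for each replicate number. Control 1 (blue circles) is the lowest array for 30 of these 31 genes, against 22.0% of all probe sets above that level, while controls 2 and 3 lie close to the knockouts for most Lce genes and below them for Sprr1b and Sprr2j-ps.

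Without control 1 the median Lce difference was 0.41 and the median Sprr difference 0.89, against 0.83 and 0.99 with all arrays. Positive differences were counted in 34 of 43, where 48.3% of all probe sets were positive in that fit, and 19 members had an unadjusted p under 0.05 in the higher direction, where 5.47% of all probe sets did. No control reached the lowest knockout for 26 members, where 13.9% of all probe sets showed this. Of these 19, 9 were Sprr and 7 Lce genes, while with all arrays the counts were 9 and 12. Sprr1b differed by 2.55 without control 1, Sprr2j-ps by 1.85, Sprr3 by 0.95 and Tgm1 by 0.79. Smaller values were left for Lce1f (0.04), Lce1i (0.03), Lce3e (0.10) and Hrnr (0.19). Without knockout 3 the median was 0.77 for the Sprr and 0.78 for the Lce genes, and 16 members had such a p, where 5.28% of all probe sets did (9 Sprr and 4 Lce genes). Whether Sprr and Lce genes differ in their response was not tested.

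Leaving out both arrays without Y-linked signal left controls 2 and 3 against knockouts 1 and 2. In that fit 33 of 43 members were positive, where 47.8% of all probe sets were, with a median of 0.68 for the Sprr genes, 0.34 for the Lce genes and 0.07 for the other members. Both knockouts lay above both controls for 27 members, where 19.8% of all probe sets did so, and 14 had an unadjusted p under 0.05 in the higher direction, where 5.26% did. Adjusted p under 0.05 was reached by 0 members and 6 probe sets in all. Sprr1b differed by 2.28 in these 4 arrays, Sprr2j-ps by 1.58, Sprr2b by 1.02, Sprr3 by 0.81 and Tgm1 by 0.56, while Sprr1a was at -0.51, Lce3e at -0.24 and Lce1f at -0.01.

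The remaining pair, knockout 3 minus control 1, has no replicate. It gave a median of 1.63 for the Sprr genes and 1.89 for the Lce genes, with 40 of 43 members positive, and Sprr1b at 4.83. The Lce genes thus differed by a median of 1.89 in this pair and 0.34 in the other 4 arrays. With Y-linked signal as a covariate the differences equal those of the plain fit, since each group has 1 such array. Then 36 members were positive, where 46.8% of all probe sets were, 26 had an unadjusted p under 0.05 in the higher direction, where 6.9% did, and 0 passed (smallest adjusted p = 0.0706). The difference between the 2 kinds of array was not tested.

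**Figure D3:**
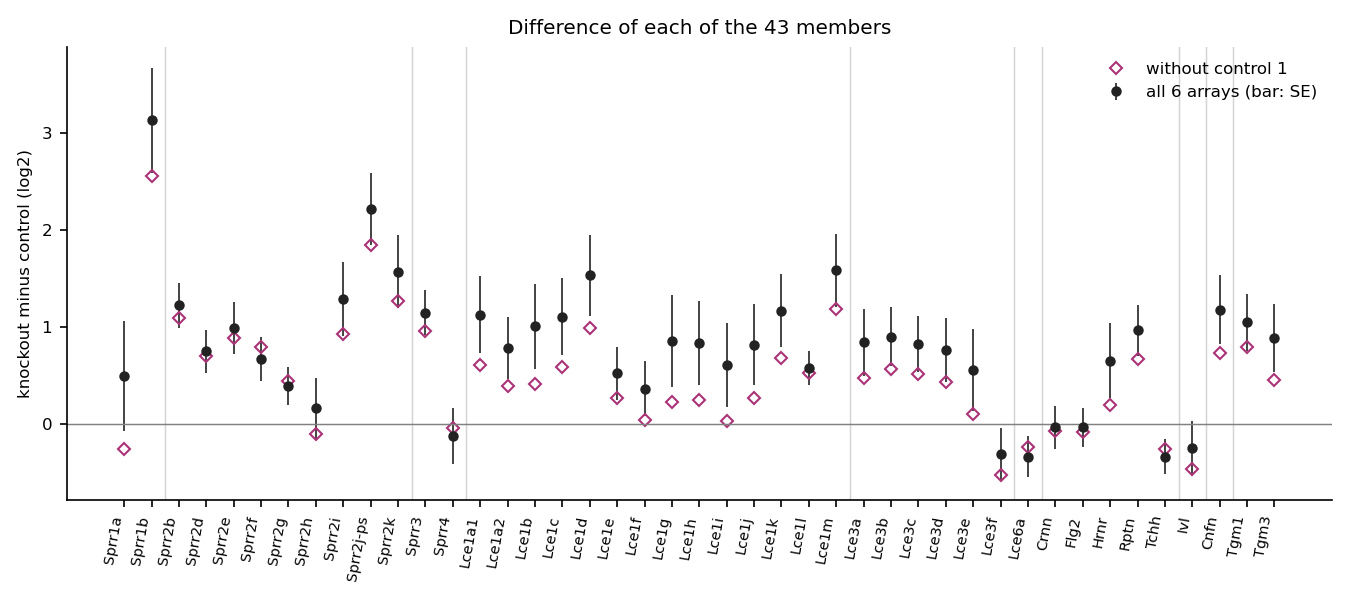
Knockout minus control difference on the log2 scale (vertical axis) for all 43 members. Black points and bars show the difference and its moderated standard error over 6 arrays, and open diamonds the difference without control 1. Without control 1 the median goes from 0.99 to 0.89 for the Sprr2 genes and from 0.845 to 0.40 for the Lce1 genes. Single genes vary: Sprr2j-ps goes from 2.21 to 1.85, Sprr2h from 0.16 to -0.10 and Sprr2f from 0.67 to 0.80. Lce1l goes from 0.57 to 0.52.

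Along chromosome 3 the cluster also holds genes that the rule leaves out. In RefSeq gene order, 51 measured genes lie from Lor to S100a10, of which 40 are members. Of these 40, 33 were positive, where 46.8% of all probe sets were. Of the 11 others, 10 were positive, but 5 of these 10 (Lelp1, Smcp, 2310050C09Rik, Tdpoz8 and Tchhl1) lay below the lower quartile on 3 or more arrays, as did Prr9, the negative one. Loricrin, Lor, a main protein of the envelope of skin, read 12.02, 13.09 and 12.78 in control lobes and 14.12, 14.09 and 14.53 in knockout lobes, with no overlap (difference 1.62, SE 0.29, adjusted p = 0.0665). Crct1, a cysteine-rich protein gene between Lce3f and Lce1m, differed by 1.96 (SE 0.50, adjusted p = 0.15) and Kprp, a keratinocyte proline-rich protein gene among the Lce1 genes, by 1.74 (SE 0.69, adjusted p = 0.333). The differences were not even along the row. Sprr4, Ivl and Lce6a, which lie between the Sprr and Lce1 genes, were at -0.13, -0.25 and -0.34. Of these, Sprr4 lay below the lower quartile on 5 of 6 arrays and Lce6a on all 6, and Ivl lay below the median of every array. S100a11 and S100a10 at the far end differed by 0.15 and 0.19.

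**Figure D4:**
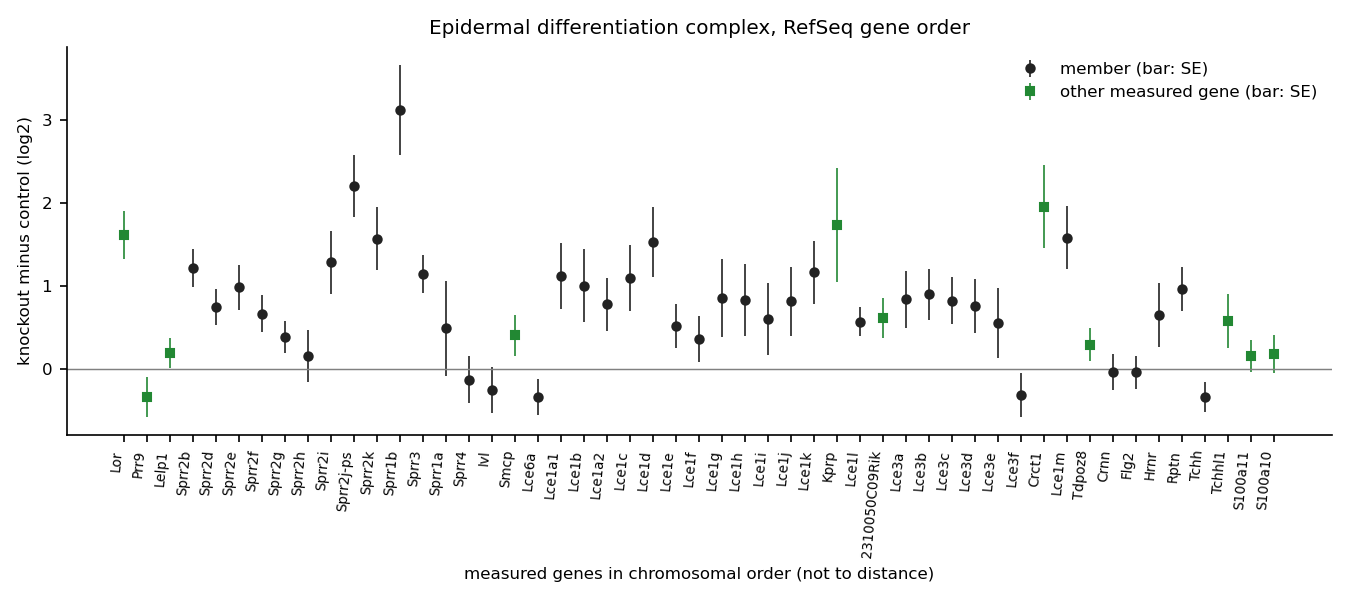
Knockout minus control difference (log2, vertical axis, bars show the moderated standard error) of the 51 measured genes from Lor to S100a10. Genes are spaced evenly in their order on the chromosome and not by distance, with members in black and other genes in green. The highest points are Sprr1b and Sprr2j-ps, and the values below 0 lie at Prr9, Sprr4, Ivl, Lce6a, Lce3f, Crnn, Flg2 and Tchh.

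Other genes of envelope formation were taken from lists that do not include the members. For comparison, 46.8% of all probe sets had a positive difference. At an unadjusted p under 0.05, 6.61% of all probe sets were higher and 6.13% lower. Of 25 measured precursors and envelope-associated genes outside the rule, 21 had positive differences, with a median of 0.74, and 0 passed the threshold (11 higher and 1 lower at an unadjusted p under 0.05). Serpinb3a, a protease inhibitor of squamous epithelium, came closest, at 16.63, 16.84 and 16.85 in control lobes and 18.02, 17.75 and 18.26 in knockout lobes (difference 1.24, SE 0.20, adjusted p = 0.0504). Krtdap differed by 0.84 (adjusted p = 0.122) and Dmkn by 1.05 (adjusted p = 0.136). Among plaque proteins that anchor the envelope to desmosomes, Ppl differed by 1.55 (adjusted p = 0.15) and Evpl by 0.73 (adjusted p = 0.426).

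The lipid envelope list, genes that make and deliver the ceramides bound to the envelope, had 16 of 17 positive differences, with a median of 1.60, and 0 past the threshold (15 at an unadjusted p under 0.05, all higher). Among all probe sets 46.8% were positive and 6.61% were higher at that p. The lipase gene Lipm read 8.75, 9.63 and 9.79 in control lobes and 10.81, 10.98 and 11.47 in knockout lobes (difference 1.70, SE 0.31, adjusted p = 0.0676). Cers3, a ceramide synthase, differed by 1.60 (adjusted p = 0.14), and the epidermal lipoxygenase genes Aloxe3 and Alox12b by 1.78 (adjusted p = 0.15) and 1.42 (adjusted p = 0.209). Control 1 was the lowest array for 15 of these 17 genes, and the median without it was 0.88. Most lipid genes and most members thus had the same lowest array.

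Of 22 measured genes of desquamation, the proteases, inhibitors and junction proteins by which cornified cells are shed, 19 were positive, with a median of 0.88 (0.57 without control 1), and 0 passed (13 higher and 1 lower at an unadjusted p under 0.05). Dsc1, a desmosomal cadherin of late squamous cells, differed by 2.02 (SE 0.40, adjusted p = 0.0814), the inhibitor Spink5 by 1.64 (adjusted p = 0.0714) and the peptidase Blmh by 1.48 (adjusted p = 0.124). The protease gene Klk7 differed by -1.05 (SE 0.26, adjusted p = 0.146), with every knockout reading below every control reading. The regulators of squamous differentiation were positive in 28 of 36, with a median of 0.41 (0.27 without control 1) and 0 past the threshold (11 higher and 2 lower at an unadjusted p under 0.05). The Notch ligand gene Jag1 differed by 0.98 (adjusted p = 0.146), the AP-1 subunit gene Junb by 0.97 (adjusted p = 0.178), the homeobox gene Pitx1 by 1.34 (adjusted p = 0.195) and Grhl1 by 1.26 (adjusted p = 0.22). Of the S100 genes of the complex, 8 of 15 were positive, with a median of 0.09 and 0 past the threshold (2 higher and 2 lower at an unadjusted p under 0.05). S100a7a differed by 1.72 (adjusted p = 0.282) and S100a14 by 0.67 (adjusted p = 0.369), while S100a6 differed by -1.22 (adjusted p = 0.0722) and S100a4 by -0.78 (adjusted p = 0.359).

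Squamous markers that are not envelope genes had differences of both signs. Of all probe sets, 46.8% were positive, and 6.61% were higher and 6.13% lower at an unadjusted p under 0.05. The basal list had 8 of 12 positive differences, with a median of 0.24 and 0 past the threshold (4 higher and 1 lower at an unadjusted p under 0.05), and the log2 of its summed signal ranged from 18.21 to 18.43 in the controls and from 18.61 to 19.26 in the knockouts. Krt5 and Krt14, the keratins of basal cells, differed by 0.09 (adjusted p = 0.94) and -0.45 (adjusted p = 0.649), and Trp63, the transcription factor of basal cells, by 0.31 (adjusted p = 0.677). Dsc3 differed by 1.10 (adjusted p = 0.132), Perp by 0.62 (adjusted p = 0.266), Pkp1 by 0.77 (adjusted p = 0.327) and Krt17 by -1.89 (adjusted p = 0.113). In the suprabasal list 5 of 13 were positive, with a median of -0.26, and 1 passed the threshold, downward (1 higher and 6 lower at an unadjusted p under 0.05). Without control 1 its median was -0.72. Its summed signal ranged from 20.69 to 20.74 in the controls and from 20.73 to 20.83 in the knockouts, a total held mostly by Krt4 and Krt13, which sit at the top of the scale.

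The suprabasal genes with the smallest p were mixed in sign. Krt76, a keratin of the palate and oral lining, fell by 3.21 (SE 0.45, limma adjusted p = 0.0324), and by 3.54 without the arrays lacking Y-linked signal (adjusted p = 0.111). It missed the threshold, too, when control 2 was left out (adjusted p = 0.0817) or knockout 1, 2 or 3 (adjusted p of 0.125, 0.0927 and 0.129). Tmprss11a, a protease of oral and oesophageal epithelium, differed by -1.29 (SE 0.21, adjusted p = 0.0502) and Krt1, a keratin of epidermis, by -1.06 (adjusted p = 0.15). Krt78 differed by 1.43 (adjusted p = 0.163). Hair follicle and appendage markers lay low on all arrays, with a median difference of -0.01 over 11 genes.

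Markers of other tissues differed between the lobes as well. The shares over all probe sets were 46.8% positive, and 6.61% higher and 6.13% lower at an unadjusted p under 0.05. All 11 airway markers were negative, with a median of -1.17 (-0.72 without control 1), a summed signal of 21.33 to 21.74 in the controls and 20.56 to 20.68 in the knockouts, and 0 past the threshold (8 lower at an unadjusted p under 0.05). All 12 skeletal muscle markers were negative (median -0.62, summed signal 21.39 to 21.51 against 20.77 to 21.31), with the lowest sum in knockout 3, the array that was highest for most envelope genes. The thyroid follicular list had 9 of 10 positive differences, with a median of 0.99 and 0 past the threshold (5 higher at an unadjusted p under 0.05). Its lowest array was control 3, not control 1. Its genes with the smallest p were Iyd (2.10, limma adjusted p = 0.136), Slc5a5 (4.83, adjusted p = 0.14), Tshr (1.75, adjusted p = 0.167) and Pax8 (1.52, adjusted p = 0.183). Control 1, the lowest array for envelope genes, had the highest airway sum. The parathyroid markers, 3 measured, summed to between 17.12 and 20.01 in the controls and between 8.70 and 18.74 in the knockouts. Thymus and lymphoid markers had a median difference of -0.08 over 9 genes, and neutrophil markers one of -0.47 over 7 genes, which was -0.07 without control 1. The summed neutrophil signal was highest in control 1 (18.66) and came almost wholly from Ltf, which glandular epithelium also makes. Ngp read 7.37 in control 1 against 3.06 or less elsewhere, Elane 5.59 against 3.51 or less, and Mpo 5.44 against 4.04 or less. The other way, Cxcr2 read 6.20 in control 1 and 7.59 in knockout 3. Retnlg, near the lower quartile, read 3.72 in control 1 and 4.01 in control 3. Camp was highest in control 1 (3.31 against 2.91 or less) but lay below the lower quartile on all 6 arrays. The part of these tissues in the envelope differences was not tested.

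**Figure D5:**
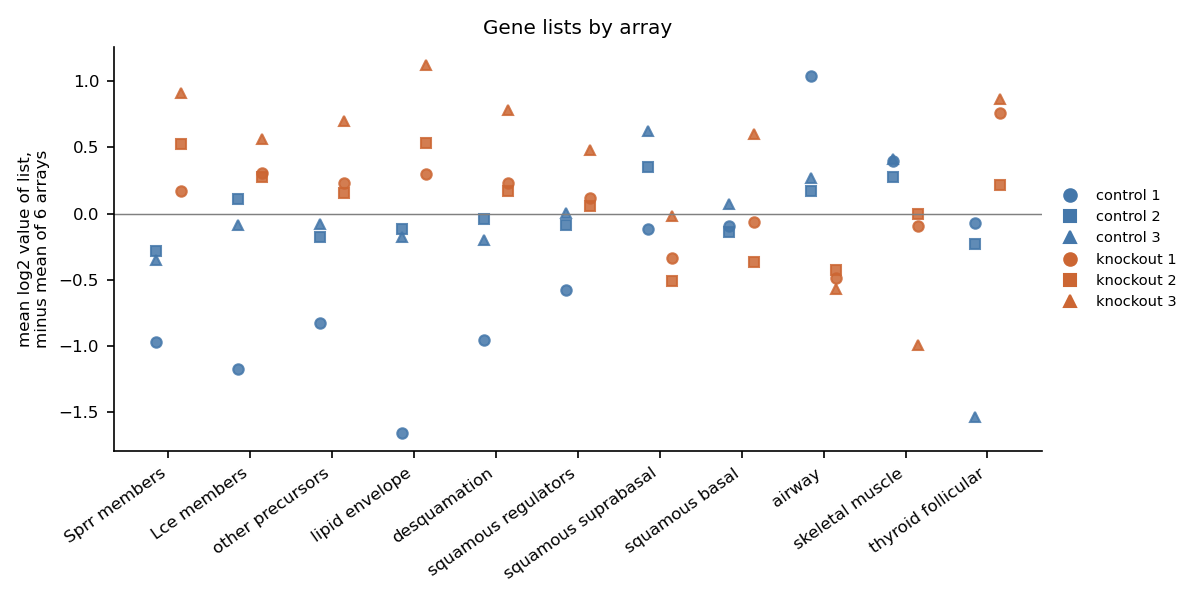
Mean log2 value of each gene list on each array, minus its mean over the 6 arrays (vertical axis), for the Sprr and Lce members, the other envelope lists and the cell type markers (horizontal axis), with controls in blue, knockouts in orange and a marker shape for each replicate number. Control 1 is lowest for the Sprr, Lce, precursor, lipid, desquamation and regulator lists and highest for the airway list, and the suprabasal squamous list has another order of arrays.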

How the data were processed

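The values are log2 signals that the authors deposited, 1 per probe set. The submitters' processing notes name RMA and Affymetrix Expression Console. Settings, version, annotation and build were not given in the sources used here. RNA from 1 frozen lobe per animal (250 ng, integrity number at least 7) was labelled as biotinylated cRNA, per the labels' protocols. RMA compresses differences at both ends of the scale. No detection calls, scanner files or batches were used here.

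Gene names came from the platform's annotation, updated through RefSeq gene identifiers (GRCm38.p6), which also gave gene order and promoters. All 22206 probe sets were fitted by lmFit and eBayes of limma 3.58.1 (R 4.3.3), with two-sided tests, Benjamini-Hochberg adjustment and a threshold of 0.05. The fit was tested on simulated data. Figures were drawn with matplotlib 3.10.9. Replicates are separate animals, per the labels' protocols.

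Every measured member is named. Those given with 6 values are, by rule, the members of each subfamily above the median level with the smallest p or the most positive or negative difference. Sprr2b, Sprr2k, Sprr4, Ivl, Lce1l, Lce1m and the values without control 1 were chosen after their values were seen, as were the printed promoters, the motifs, the Y-linked genes, and Ppl, Tg, Pth, Bpifa1, Cxcr2, Retnlg, Ltf, S100a10, S100a11, Prr9, Lelp1, Smcp, 2310050C09Rik, Tdpoz8, Tchhl1, Tgm5, Evpl, Kprp, Crct1, Krt4, Krt5, Krt13, Krt14, Trp63 and Ngp. So was Camp. Of other lists up to 4 genes with the smallest p are named. The members and lists were chosen with earlier results of these data known. Pi3 was dropped from its list because its one synonym match was another gene.

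Alternatives were other normalizations, variance models, thresholds and filters, a replicate block, and leaving out each array. After the data were seen, Y-linked signal was added as a covariate and the 2 arrays without it were left out. Same-numbered animals were not paired: the correlations of their deviations from the group means were -0.009, 0.076 and 0.017.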

Additional observations from a re-analysis of the deposited data

How the results depend on the processing

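No member passed at an adjusted p of 0.05 with all arrays, and 2 did with a variance trend, with or without robust fitting (Sprr1b and Sprr2j-ps). With the replicate number as a block 1 member passed, Sprr2j-ps (adjusted p = 0.037), and 63 probe sets in all. At a threshold of 0.1, 4 members passed (Sprr1b, Sprr2b, Sprr2j-ps and Sprr3). Leaving out 1 array gave 0 to 1 member higher, the 1 being Sprr1b without control 2. Over all these fits the adjusted p ran from 0.0361 to 0.188 for Sprr1b and from 0.037 to 0.173 for Sprr2j-ps. The count over all probe sets, 75, was 118 with a trend and robust fitting, 260 at a threshold of 0.1, 4 at 0.01, and 2 to 43 without 1 array (43 without control 1, 9 without control 2, 16 without control 3, and 2, 15 and 4 without knockouts 1, 2 and 3). No alternative run brought a member past the threshold in the lower direction. Medians without 1 array ran from 0.77 to 1.23 for the Sprr genes, from 0.41 to 1.03 for the Lce genes and from 0.19 to 0.90 for the other members. With the alternatives other than Y-linked signal, the sign turned for 5 members. Crnn was at 0.0097 after renewed quantile normalization, 0.0083 with median centring, and -0.16 to 0.12 without 1 array (0.12 without control 3, 0.087 without knockout 1). Flg2 was at 0.0083 with median centring, 0.027 with array weights and -0.14 to 0.11 without 1 array (0.11 without knockout 3). Sprr2h was at -0.040 with array weights and -0.12 to 0.34 without 1 array (-0.12 without knockout 3, -0.10 without control 1). Without 1 array Sprr1a ran from -0.26 (without control 1) to 0.97, Sprr4 from -0.45 to 0.093 (without knockout 1) and Ngp from -2.20 to 0.24 (without control 1). Without both arrays that lack Y-linked signal, an alternative chosen after seeing the data, 6 probe sets passed in all, the median of the members other than Sprr and Lce was 0.065, and the sign turned for Flg2 (0.065), Lce1f (-0.01), Lce3e (-0.24), Sprr1a (-0.51), Sprr2h (-0.39) and Ngp (0.28). Of other genes just above the threshold, Serpinb3a (higher) and Tmprss11a (lower) passed with other normalizations and variance models. With robust fitting and a trend, Lor, Lipm and Spink5 passed in the higher direction. The airway gene Bpifb1 then passed in the lower direction (-1.32, limma adjusted p = 0.0722 in the plain fit). Differences of genes near the lower quartile cannot be told from background.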
